A study of Mus musculus with 5 samples.

Results

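Voltage-gated sodium channels of the brain and their closest partners were followed in 5 RNA-seq libraries of whole mouse cerebellum. The group holds 9 genes of 55421 in the count table, chosen by name with earlier results of these data known. They are the alpha subunit genes Scn1a, Scn2a, Scn3a and Scn8a, the beta subunit genes Scn2b, Scn3b and Scn4b, and the intracellular fibroblast growth factor genes Fgf12 and Fgf14. Cerebella were taken at postnatal day 14. The genotype behind the 3 Yy1 cKO libraries is Pcp2 Cre/+ with Yy1 fx/fx, and that behind the 2 control libraries, from littermates, is Pcp2 Cre/+ with Yy1 fx/+, so the controls carry the Cre and a single floxed copy of Yy1. Pcp2 drives the Cre in Purkinje cells, the large inhibitory neurons whose axons leave the cortex of the cerebellum, so most cells in these samples keep Yy1. The animals were of mixed sex.

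A voltage-gated sodium channel opens when the membrane depolarises and carries the rising phase of the action potential. Its large alpha subunit forms the pore, and beta subunits, single-pass membrane proteins with an immunoglobulin-like domain, change its gating and its place in the membrane. The intracellular FGFs are not secreted and bind the tail of the alpha subunit at the axon initial segment, the stretch of axon where spikes begin. In rodent brain Scn3a and Scn3b are known as subunits of the embryonic and newborn period, while Scn1a, Scn8a, Scn2b and Scn4b gain expression as neurons mature. Scn8a, Scn4b and Fgf14 are known for the resurgent sodium current with which Purkinje cells fire at high rates.

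Of the alpha subunit genes, 3 lie on chromosome 2 (GRCm38, GENCODE M21) in the order Scn3a (65457118 to 65567627, minus strand), Scn2a (65620771 to 65767447, plus strand) and Scn1a (66270778 to 66440840, minus strand), and Scn8a lies on chromosome 15 (100869858 to 101045938, plus strand). Scn2b (45117782 to 45130070) and Scn4b (45138395 to 45154152) are neighbours on the plus strand of chromosome 9, and Scn3b stands elsewhere on that strand (40269217 to 40291618). Fgf12 lies on chromosome 16 (28160098 to 28753068, minus strand) and Fgf14 on chromosome 14 (123977907 to 124677127, minus strand). RefSeq promoter windows (GRCm38.p6, 250 bases before to 50 after a start site) were at hand for 7 of the 9 genes, with 12 start sites in all. The 250 bases before the start sites of Scn1a (chr2:66440838-66441087, minus strand) and of the first start of Scn2a (chr2:65620519-65620768, plus strand) are shown because these alpha subunit genes of the chromosome 2 cluster rose together in Yy1 cKO.
Scn1a: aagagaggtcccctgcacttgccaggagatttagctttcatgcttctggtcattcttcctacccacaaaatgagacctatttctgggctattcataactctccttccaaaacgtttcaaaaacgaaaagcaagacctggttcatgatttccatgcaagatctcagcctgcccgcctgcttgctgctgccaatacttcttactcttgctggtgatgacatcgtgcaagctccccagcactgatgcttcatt
Scn2a: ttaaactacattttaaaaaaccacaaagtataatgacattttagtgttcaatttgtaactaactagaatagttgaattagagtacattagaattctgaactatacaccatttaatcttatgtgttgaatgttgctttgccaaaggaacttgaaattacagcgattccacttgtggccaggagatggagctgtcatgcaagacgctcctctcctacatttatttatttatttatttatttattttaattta
The 300-base windows held 5 CG dinucleotides at Scn1a and 3 at the first start of Scn2a, against a median of 7 and quartiles of 3 and 20 over 32851 promoter windows. The count was 9 at the second start of Scn2a, 38 and 12 at the starts of Scn8a, 2 at Scn2b, 26 at Scn4b, 12 at Fgf14 and 18 to 34 at those of Fgf12. The GC content of the 300-base windows was 47.3% at Scn1a and 33.0% at the first start of Scn2a, against a median of 52.7%.

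The windows were searched on both strands for GCCATNTT, a short form of the motif that YY1 binds, for a longer form in which the same motif, read on the opposite strand, is followed by GGC, and for GGGCGG (the core of SP1 sites) and TATAAA. Every match of the longer form is thus also a match of GCCATNTT. GCCATNTT was found in 2 of the 12 windows, at the second start of Scn2a and at Scn2b, and in 6.05% of all promoter windows. The longer form was in 0 of the 12 and in 0.986% of all windows. The matches are shown with their neighbouring bases, with the motif in capitals: that of Scn2a (chr2:65668440-65668469, plus strand) begins 235 bases before the start site, and that of Scn2b (chr9:45117848-45117877, plus strand) 17 bases before it, in what GENCODE M21 already counts as exon.
Scn2a second start: aatgcttcgctGCCATCTTcagctcggtgc
Scn2b: catacaagtcgGCCATATTagagagatgga
GGGCGG was in 4 of the 12 windows (35.7% of all), those of Fgf14 and of 3 starts of Fgf12, and TATAAA in 1, the second start of Scn2a (13.6% of all). A match of letters does not show that a factor binds there.

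Total counts ran from 17424860 to 20305705 per library. Levels are CPM, a gene's count relative to all counts of its library, scaled between libraries by the TMM method. Yy1 itself stood at 74.6 and 73.7 CPM in control libraries and at 73.4, 81.7 and 75.8 CPM in Yy1 cKO libraries (log2 fold change 0.05, adjusted p = 0.61), and counts of the whole gene in whole tissue do not separate the deleted exons in Purkinje cells. Markers of Purkinje cells, granule neurons, interneurons and glia were all present, and those of muscle and choroid plexus summed to 2.79 and 2.21 CPM at most. All 3 erythroid markers rose, with sums of 213 to 245 CPM in control libraries and 503 to 796 CPM in Yy1 cKO libraries. Of 3 endothelial markers Cldn5 (log2 fold change -1.01, adjusted p = 7.6e-05) and Pecam1 (-0.41, adjusted p = 0.021) fell and Flt1 rose (0.24, adjusted p = 0.049). The part of blood and vessel cells in the results was not tested. Yy1 cKO 3 stood apart from Yy1 cKO 1 and 2: the chi-square per gene between libraries was 16.7 and 16.6 for its pairs with them and 3.51 between those libraries. Labels give no animal for each replicate, so p-values measure the spread between these samples.

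All 9 genes passed the filter on low counts. In Yy1 cKO 5 were higher (Scn1a, Scn2a, Scn2b, Fgf12 and Fgf14), 2 were lower (Scn3a and Scn3b) and 2 did not pass (Scn8a and Scn4b), by the edgeR quasi-likelihood test with Benjamini-Hochberg adjustment over all 20388 genes tested at an adjusted p under 0.05. Among all genes tested 23.4% were called, 10.7% higher and 12.6% lower, and with scaling by library size alone 29.8% of the calls were higher in place of 45.9%. The median log2 fold change was 0.42 over the 9 genes and 0.00 over all genes tested. The CPM of the groups did not overlap for the 7 genes called, 5 of them higher and 2 lower, as was so for 52.2% of all genes tested (25.2% higher and 27% lower). In bulk samples fewer cells of a type and less RNA per cell cannot be told apart.

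**Figure D1:**
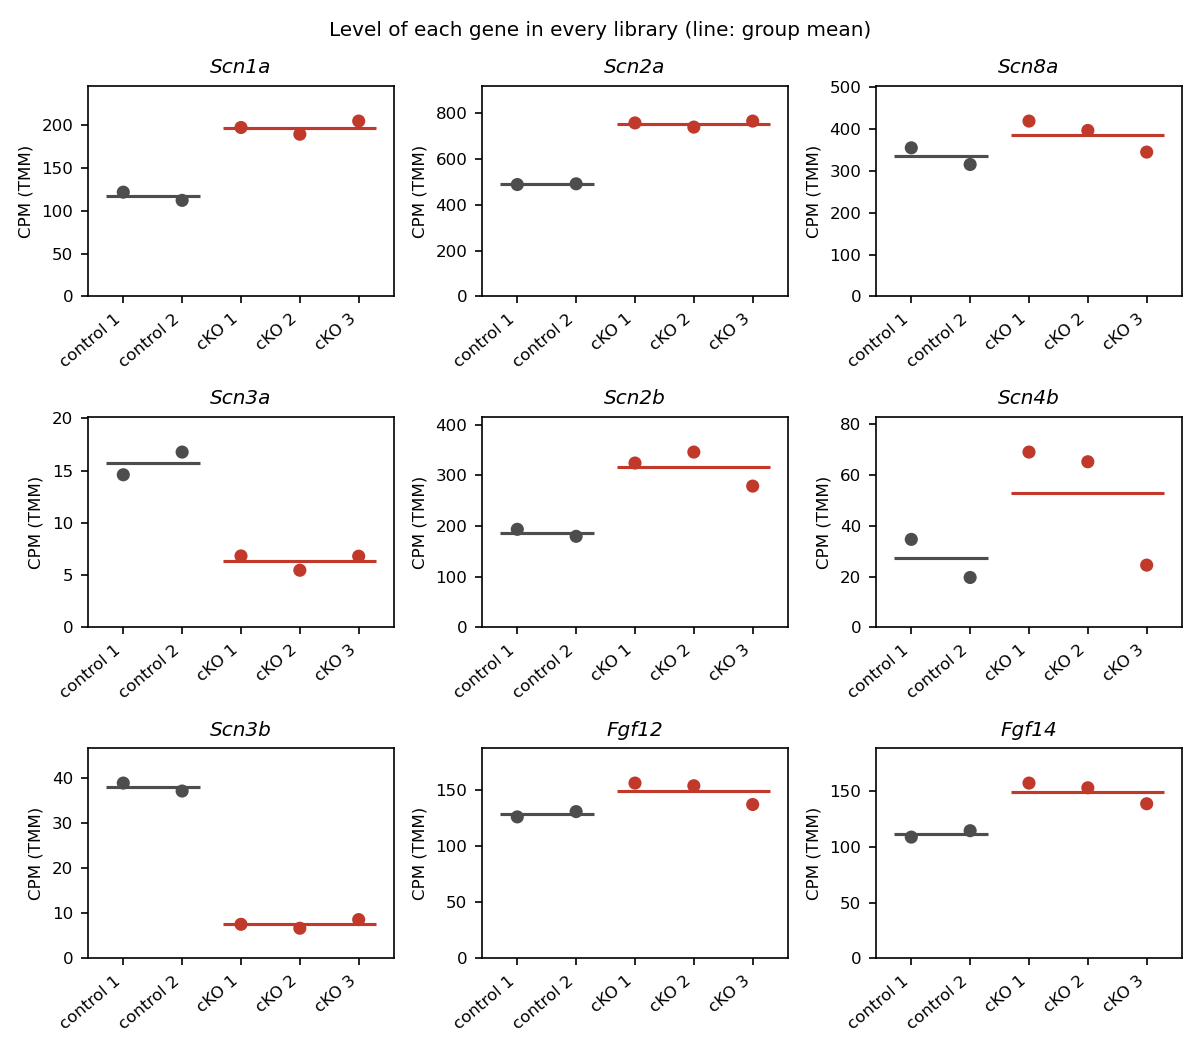
Level of each sodium channel gene in CPM (TMM-scaled, vertical axes from 0) in the 2 control (grey) and 3 Yy1 cKO (red) libraries, with lines at the group means. Scn3a and Scn3b sit lower in every Yy1 cKO library, Scn1a, Scn2a and Scn2b higher, and Scn4b at 24.5 CPM in Yy1 cKO 3 lies within the control range.

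Scn1a, which encodes the channel Nav1.1 of fast-spiking neurons, stood at 121 and 112 CPM in control libraries and at 197, 189 and 204 CPM in Yy1 cKO libraries. Every Yy1 cKO library was above both controls, and the groups were far apart beside the spread within each. The gene rose 1.69-fold (log2 fold change 0.75 ± 0.062, SE, adjusted p = 3.7e-05). Scn2a, the gene of Nav1.2, found in unmyelinated axons such as the parallel fibres of granule cells, stood at 489 and 492 CPM in control libraries and at 758, 739 and 766 CPM in Yy1 cKO libraries. It had the highest CPM of the 9 genes, and its control libraries were nearly equal while all Yy1 cKO libraries lay above them. It rose 1.54-fold (log2 fold change 0.62 ± 0.060, adjusted p = 9.7e-05).

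Scn8a, the gene of Nav1.6 at mature initial segments and nodes of Ranvier, stood at 355 and 315 CPM in control libraries and at 419, 396 and 345 CPM in Yy1 cKO libraries. Yy1 cKO 3 fell between the controls, so the groups overlapped. The log2 fold change was 0.21 ± 0.091 (95% interval 0.00 to 0.41, not adjusted for the number of genes, adjusted p = 0.14). Without Yy1 cKO 3 it was 0.28 (adjusted p = 0.0015), and without a filter on low counts 0.21 (adjusted p = 0.011).

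Scn3a, the gene of Nav1.3, an alpha subunit of embryonic neurons, stood at 14.6 and 16.8 CPM in control libraries and at 6.84, 5.47 and 6.82 CPM in Yy1 cKO libraries. The raw counts behind these levels were 272 and 301 against 136, 100 and 127. The gene was the lowest of the 9 in every library and all Yy1 cKO libraries lay under the controls. It fell 2.46-fold (log2 fold change -1.30 ± 0.14, adjusted p = 1.6e-04).

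Alpha subunit genes known mainly from other tissues were near the limit of detection. Scn10a, of sensory neurons, had 0 counts in all 5 libraries, and Scn4a, of skeletal muscle, had at most 2 counts in any library and did not pass the filter. Scn9a (0.32 to 0.89 CPM), Scn7a (0.22 to 0.75 CPM) and Scn11a (2.97 to 4.84 CPM) were tested and did not pass, with log2 fold changes of -0.41, -0.01 and -0.30 (adjusted p = 0.57, 0.99 and 0.33).

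The make-up of the alpha subunit transcripts was compared as shares, which do not depend on the scaling between libraries. Each gene's level was divided by the length of its merged exons, and the share is that of the sum over Scn1a, Scn2a, Scn3a and Scn8a. Scn2a made up 52.6% and 55.2% in control libraries and 57.1%, 57.7% and 59.6% in Yy1 cKO libraries. Scn1a made up 14.9% and 14.3% against 16.9%, 16.8% and 18.2%. Scn2a was thus the leading alpha subunit transcript in every library, and the shares of Scn2a and Scn1a were above the controls in each Yy1 cKO library. Scn8a made up 30.9% and 28.6% in control libraries and 25.5%, 25.0% and 21.7% in Yy1 cKO libraries. Its own level did not pass the test, with a log2 fold change of 0.21. The lower share of Scn8a thus follows from the larger rises of Scn2a and Scn1a. Scn3a made up 1.61% and 1.93% against 0.527%, 0.437% and 0.543%. The mean shares differed by 4.25 percentage points for Scn2a, 2.68 for Scn1a, -5.66 for Scn8a and -1.264 for Scn3a (Yy1 cKO minus control). None of the 4 groups of shares overlapped, and the exact two-sided permutation test gave p = 0.1 for each (0.1 after Benjamini-Hochberg adjustment over the 4 shares), the smallest value that 2 against 3 libraries allow. Shares of 1 total are not independent of each other.

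**Figure D2:**
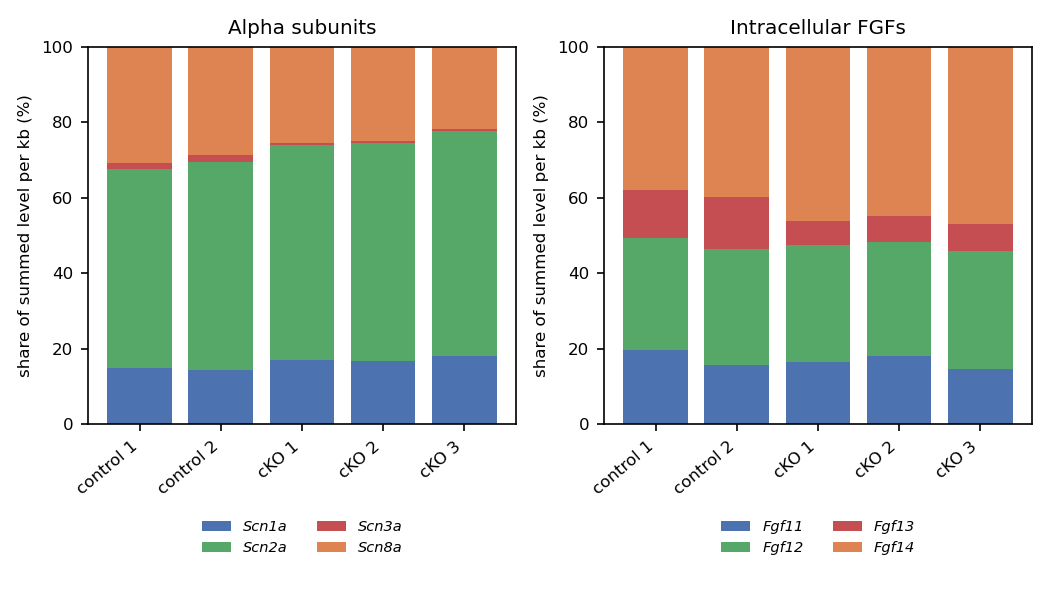
Share of each gene (%) in the summed level per kb of merged exons, per library, for alpha subunits and intracellular FGFs. Scn3a and Fgf13 (red bands) narrow in the 3 Yy1 cKO libraries, Fgf13 from 12.7% and 13.8% to 7.05% or less.

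Ratios between members were also formed within each library. The ratio of Scn3a to Scn1a per length was 0.108 and 0.134 in control libraries and 0.0311, 0.0259 and 0.0299 in Yy1 cKO libraries. The ratio of Scn8a to Scn2a was 0.586 and 0.517 against 0.446, 0.433 and 0.363. That of Scn2a to Scn1a was 3.52 and 3.85 against 3.37, 3.43 and 3.28. In each of these ratios the groups did not overlap, though the last moved little beside the first. For Scn3a to Scn1a this follows from the levels given above, as Scn3a was lower and Scn1a higher in every Yy1 cKO library. The lower ratio of Scn8a to Scn2a came with the rise of Scn2a, while Scn8a was not called.

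Of the beta subunit genes, Scn2b rose and Scn3b fell. Scn2b, whose protein is bound to the alpha subunit by a disulfide bridge, stood at 194 and 180 CPM in control libraries and at 324, 346 and 279 CPM in Yy1 cKO libraries. All 3 Yy1 cKO libraries were above the controls, with Yy1 cKO 3 the lowest of them. The gene rose 1.69-fold (log2 fold change 0.76 ± 0.092, adjusted p = 5.4e-04).

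Scn3b, a beta subunit of the newborn brain that binds the channel without a covalent bond, stood at 38.8 and 37.0 CPM in control libraries and at 7.55, 6.68 and 8.59 CPM in Yy1 cKO libraries. The counts were 722 and 664 against 150, 122 and 160. All Yy1 cKO libraries lay far under the controls. It fell 4.98-fold (log2 fold change -2.32 ± 0.12, adjusted p = 2.3e-06), and 33 of the 20388 genes had a smaller p. The ratio of Scn3b to Scn2b per length went from 0.171 and 0.176 in control libraries to 0.0199, 0.0165 and 0.0263 in Yy1 cKO libraries. Its fall follows from the fall of Scn3b and the rise of Scn2b and adds no separate result.

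The falls of Scn3a and Scn3b stood beside those of marker genes of immature cells. All 6 markers of immature neurons fell, while 12.6% of all genes tested were called lower. The summed level of these 6 markers was 756 to 807 CPM in control libraries and 111 to 114 CPM in Yy1 cKO libraries. Of 7 markers of granule cell precursors 6 fell, with sums of 183 to 214 against 35.0 to 43.4 CPM. Atoh1 was at 0 in Yy1 cKO 1 and 3 and Nhlh1 in Yy1 cKO 3, while Gli1 did not pass (adjusted p = 0.55). All 4 markers of oligodendrocyte precursors fell as well, with sums of 163 to 180 against 95.4 to 109 CPM. The part of these cells in the fall of Scn3a and Scn3b was not tested.

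Scn4b, the beta subunit whose tail can block the open pore and so give the resurgent current, differed more between libraries than between groups. It stood at 34.6 and 19.6 CPM in control libraries and at 68.9, 65.1 and 24.5 CPM in Yy1 cKO libraries. Yy1 cKO 1 and 2 were above both controls, and Yy1 cKO 3 lay between them. The log2 fold change was 0.96 ± 0.65 (95% interval -1.02 to 2.94, adjusted p = 0.40), and 1.303 without Yy1 cKO 3 (adjusted p = 0.14). Its neighbour Scn2b was also lower in control 2 than in control 1 and lowest in Yy1 cKO 3 among the Yy1 cKO libraries. These differences were smaller for Scn2b, and its Yy1 cKO 3 stayed above both controls. The ratio of Scn4b to Scn2b per length was 0.167 and 0.102 in control libraries and 0.199, 0.176 and 0.0821 in Yy1 cKO libraries.

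Markers of Purkinje cells differed among themselves in how they stood to Scn4b. Ppp1r17, a phosphatase inhibitor of these cells, was lowest in control 2 (53.5 CPM) and Yy1 cKO 3 (63.0 CPM), as Scn4b was, and stood at 71.2 to 94.3 CPM elsewhere. Pcp2 was highest in Yy1 cKO 3 (344 CPM) and lowest in control 1 (158 CPM). Car8, a Purkinje cell protein that binds the calcium release channel, was lowest in Yy1 cKO 3 (648 CPM) and stood at 791 to 1051 CPM elsewhere. The calcium-binding protein gene Calb1 ranged from 611 CPM in control 1 to 734 CPM in Yy1 cKO 3. The 10 markers summed to 4741 and 5005 CPM in control libraries and to 6408, 6573 and 5543 CPM in Yy1 cKO libraries. Of these markers 2, Itpr1 and Pvalb, rose, while 10.7% of all genes tested were called higher. By the measure used below for likeness of profiles, and chosen after the pattern of Scn4b was seen, the genes nearest to Scn4b were Cpeb1, Cntnap5b and Cabp7, at a root mean square difference of 0.17, 0.22 and 0.24. Cpeb1 stood at 13.6 and 6.64 CPM in control libraries and at 20.03, 20.1 and 7.09 CPM in Yy1 cKO libraries. All 3 were lowest in control 2 and Yy1 cKO 3, with adjusted p of 0.58 to 0.63 between the groups.

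**Figure D3:**
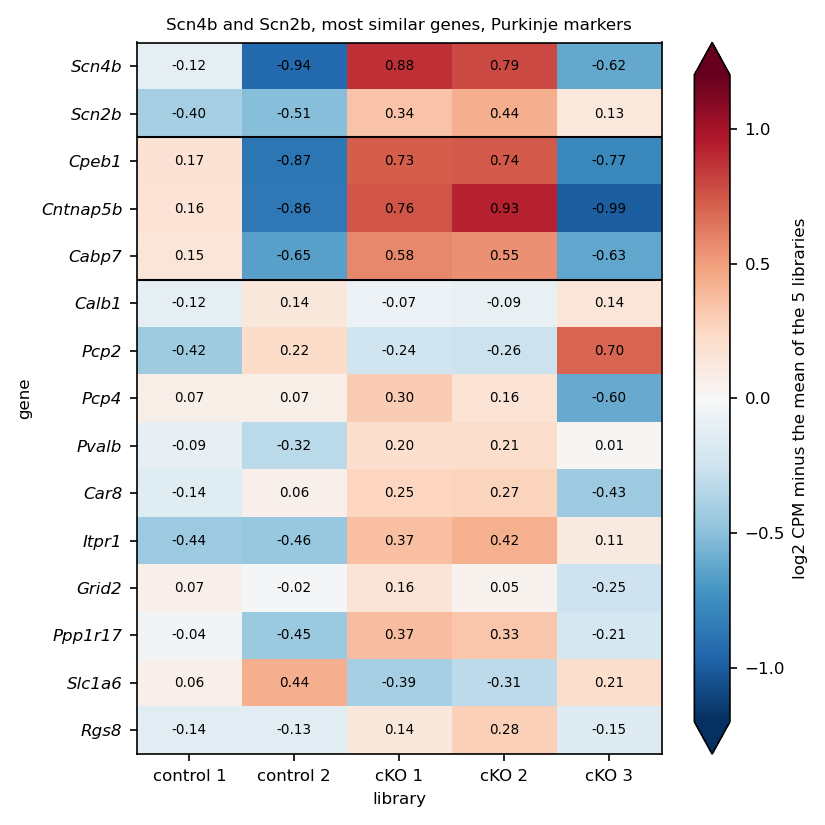
Log2 CPM minus the mean of the 5 libraries (colour and printed value) for Scn4b and Scn2b, the 3 genes most like Scn4b, and 10 Purkinje cell markers, by library. Scn4b is at -0.94 in control 2 and -0.62 in Yy1 cKO 3, where Cpeb1, Cntnap5b and Cabp7 are also under 0, and the Purkinje cell markers differ among themselves there: Ppp1r17 is at -0.45 and -0.21, Pcp2 at 0.22 and 0.70.

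Both intracellular FGF genes among the 9 rose, Fgf12 close to the threshold. Fgf14, mutated in a spinocerebellar ataxia, stood at 109 and 114 CPM in control libraries and at 157, 153 and 139 CPM in Yy1 cKO libraries. The groups did not overlap, and the gene rose 1.34-fold (log2 fold change 0.42 ± 0.068, adjusted p = 0.0018). Fgf12 stood at 126 and 131 CPM in control libraries and at 156, 154 and 137 CPM in Yy1 cKO libraries. Here Yy1 cKO 3 was close to control 2. The log2 fold change was 0.21 ± 0.068 (adjusted p = 0.047), and the gene missed the threshold when control 1 (adjusted p = 0.28), control 2 (0.16), Yy1 cKO 1 (0.15) or Yy1 cKO 2 (0.12) was left out, with scaling by library size alone (0.17), with DESeq2 (0.071) and with limma-voom (0.055).

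Of the other members of this FGF family, Fgf13 fell and Fgf11 did not pass. Fgf13, X-linked and also known to bind microtubules in young neurons, stood at 34.8 and 38.0 CPM in control libraries and at 21.0, 22.7 and 19.98 CPM in Yy1 cKO libraries, and fell by 0.78 ± 0.092 on the log2 scale (adjusted p = 3.2e-04). Fgf11 stood at 40.8 and 32.6 CPM against 40.6, 44.9 and 31.3 CPM, with overlapping groups (log2 fold change 0.09 ± 0.17, adjusted p = 0.78). Of the 4 genes per length, Fgf14 made up 38.0% and 39.9% in control libraries and 46.2%, 44.7% and 47.0% in Yy1 cKO libraries. Fgf13 went from 12.7% and 13.8% to 6.42%, 6.90% and 7.05%, and Fgf12 stayed at 29.7% to 31.4% over the 5 libraries.

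**Figure D4:**
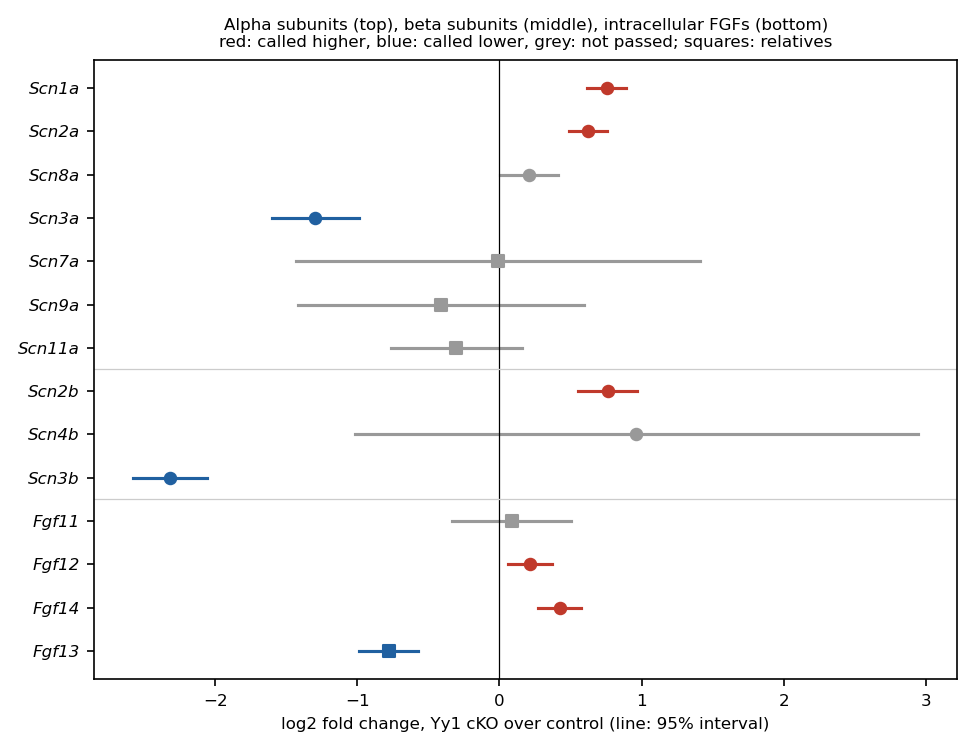
Log2 fold change (Yy1 cKO over control) with its 95% interval for the 9 genes (circles) and 5 of their relatives (squares), in red where called higher, blue where called lower and grey where not passed. Scn3b (-2.32), Scn3a (-1.30) and Fgf13 (-0.78) lie left of 0, and the interval of Scn4b runs from -1.02 to 2.94.

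Levels were set side by side per length, as CPM per kb of merged exons. In the controls the order was Scn2b (40.1 ± 2.1, SD, n = 2), Scn2a (38.5 ± 0.18), Fgf14 (26.7 ± 0.97), Scn8a (21.2 ± 1.8), Fgf12 (20.7 ± 0.54), Scn1a (10.5 ± 0.61), Scn3b (6.94 ± 0.23), Scn4b (5.44 ± 2.1) and Scn3a (1.2601 ± 0.12). Neighbours whose libraries overlapped were Scn2b and Scn2a, Scn8a and Fgf12, and Scn3b and Scn4b. In Yy1 cKO the order was the same except that Scn4b (10.6 ± 4.9, SD, n = 3) stood above Scn3b (1.39 ± 0.18). There Scn2b (67.9 ± 7.4) and Scn2a (59.2 ± 1.1) overlapped, as did Scn8a (24.5 ± 2.4) and Fgf12 (24.0 ± 1.7). Merged exons count all annotated isoforms, of which Scn8a has 20 and Scn4b 1, so these levels depend on the annotation.

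Reads that fit more than 1 gene could blur the alpha subunits on chromosome 2. Of all 50-base windows in the transcripts of Scn3a 6.49% also occurred in another gene's transcripts, most often in those of Scn2a, and for Scn2a and Scn1a the share was 5.76% and 4.03%. It was 0.0374% for Scn8a and 0 for Scn3b, Scn4b and Fgf14. Only Fgf14 shared exon bases with another annotated gene, 220 of 4182 with the antisense gene Gm28932.

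Genes with the profile most like a member were sought among 10730 others with a mean of at least 10 CPM, by the root mean square difference of log2 CPM after each gene was centred over the 5 libraries. For Scn3b they were Sox4 (0.11), a transcription factor of young neurons, Mex3a (0.12), which encodes an RNA-binding protein, and Pdzrn3 (0.13). Sox4 stood at 89.8 and 93.0 CPM in control libraries and at 17.4, 18.5 and 19.3 CPM in Yy1 cKO libraries. For Scn1a they were Ccdc63 (0.0062), Man2a2 (0.017), a mannosidase of the Golgi, and Slc24a2 (0.023), a sodium and calcium exchanger. For Scn2a they were Zbtb4 (0.014), Gaa (0.019), the lysosomal alpha-glucosidase, and Cx3cl1 (0.025), a chemokine of neurons. With 5 libraries in 2 groups these distances mostly reflect a like fold change.

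Genes of the scaffold that holds sodium channels at the initial segment and node were called in both directions, beside 23.4% of all genes tested. Of 11 genes 2 rose and 2 fell, with a median log2 fold change of -0.01. Ank3, which encodes ankyrin-G, the anchor of the channels, stood at 1056 and 955 CPM in control libraries and at 1068, 1029 and 904 CPM in Yy1 cKO libraries (log2 fold change -0.01, adjusted p = 0.96, named here for its role, as a choice made after its value was seen). Trim46, which organises microtubules at the initial segment, fell by 0.36 (adjusted p = 0.0052), and the cell adhesion gene Nfasc by 0.26 (adjusted p = 0.012), while the spectrin gene Sptan1 rose by 0.34 (adjusted p = 0.0070). Without control 1 these 3 genes missed the threshold (adjusted p = 0.064, 0.13 and 0.097), and so they did without control 2 (0.057, 0.072 and 0.058).

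Potassium channels share these axon domains. Of 10 genes of such channels and their partners 6 rose and 1 fell, with a median of 0.50. Among all genes tested 10.7% were called higher and 12.6% lower. Kcna2, of the regions beside nodes and of basket cell terminals, rose by 0.71 (adjusted p = 1.3e-04). Kcnq5 fell from 27.3 and 26.3 CPM to 3.42, 2.30 and 3.60 CPM (log2 fold change -3.10, adjusted p = 2.5e-06). Kcnq3, chosen after its values were seen, stood at 141 CPM in Yy1 cKO 3 and at 54.7 to 75.2 CPM in the other libraries, and did not pass (adjusted p = 0.29).

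The sodium pump restores the gradient that the channels run down. Of its 6 genes 5 rose and 0 fell, with a median of 0.54, while 10.7% of all genes tested were called higher. Atp1b2, the beta subunit of glia, rose by 0.63 (adjusted p = 2.7e-04), and Atp1b1, a beta subunit of neurons, by 0.59 (adjusted p = 3.2e-04). In the complex of the sodium leak channel NALCN 1 of 4 genes rose, beside the same 10.7% of all genes tested. Unc80 stood at 412 and 365 CPM in control libraries and at 649, 625 and 613 CPM in Yy1 cKO libraries (log2 fold change 0.69, adjusted p = 1.4e-04), while Unc79 (0.13, adjusted p = 0.22) and Fam155a (-0.09, adjusted p = 0.33) did not pass.

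Genes that act on the channel protein or its RNA were called in both directions, beside 23.4% of all genes tested. Of 13 genes of proteins that bind or modify the channels 2 rose and 2 fell, with a median of -0.04. Ptprz1, a receptor phosphatase, rose by 0.33 (adjusted p = 0.0060), and the microtubule-associated genes Map1b and Dpysl2 fell by 0.22 and 0.20 (adjusted p = 0.033 and 0.047). Leaving out control 1 ended all 3 calls (adjusted p = 0.064, 0.17 and 0.22), as did leaving out control 2 (0.075, 0.19 and 0.21), and those of Map1b and Dpysl2 were also lost without Yy1 cKO 1 (0.10 and 0.15) or Yy1 cKO 2 (0.083 and 0.061). Of 10 genes of RNA-binding proteins and repressors that act on channel transcripts 1 rose and 2 fell, with a median of -0.13. Nova2, a splicing factor of neurons, fell by 0.57 (adjusted p = 0.0063, and 0.056 without control 1), Rcor1, a partner of the repressor REST, fell by 0.32 (adjusted p = 0.012) and Rbfox1, a splicing factor, rose by 0.28 (adjusted p = 0.030). Leaving out either control ended the calls of Rcor1 (0.064 and 0.14) and Rbfox1 (0.15 and 0.18), and so did leaving out Yy1 cKO 1 (0.059 and 0.096), while Rbfox1 was also lost without Yy1 cKO 2 (0.093).

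**Figure D5:**
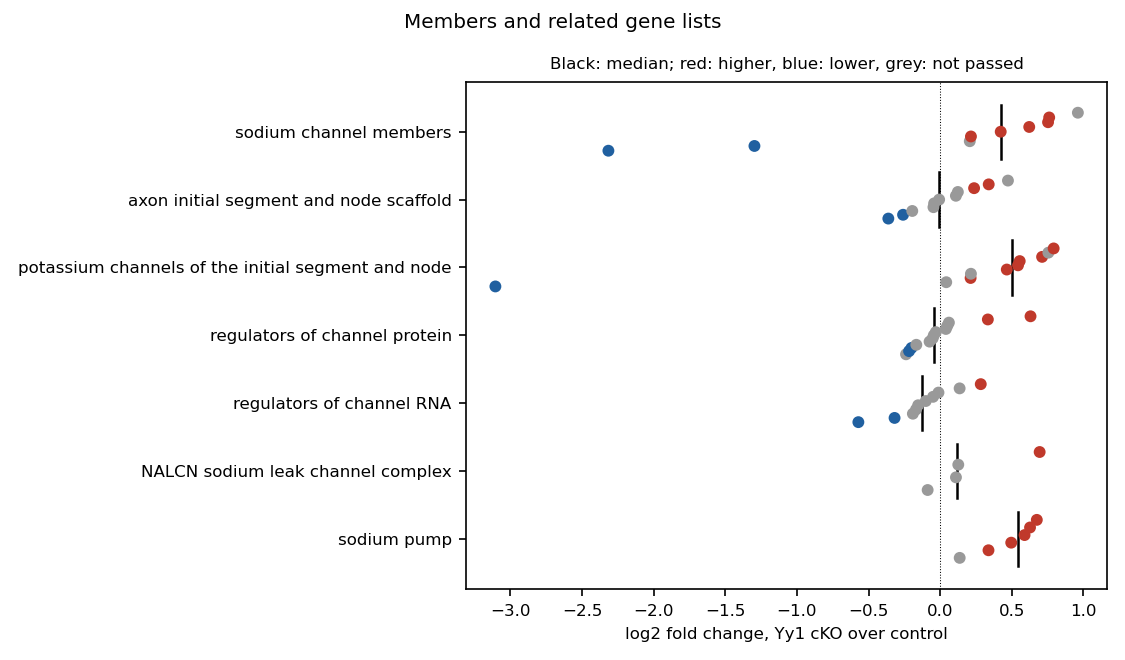
Log2 fold change (Yy1 cKO over control) of each tested gene in the 9 sodium channel members and 6 related lists, with the list median as a black line. The medians are 0.54 for the sodium pump, 0.50 for potassium channels and -0.01 for the scaffold, and Kcnq5 lies apart at -3.10.

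Markers of the neurons that carry these channels differed between the groups as well. Of 8 granule neuron markers 6 rose, while 10.7% of all genes tested were called higher. The sum of these 8 markers went from 4425 and 4450 CPM in control libraries to 5987, 6093 and 5575 CPM in Yy1 cKO libraries. Of 6 markers of molecular layer interneurons 4 rose, with sums of 274 to 277 CPM against 391 to 428 CPM. None of the markers in these lists was at 0 in any library. The part of these cell types in the rise of Scn1a, Scn2a, Scn2b and Fgf14 was not tested.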

How the data were processed

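Bulk RNA-seq counts of 2 control and 3 Yy1 cKO cerebella were analysed. Per the labels' protocols, TRIzol RNA without ribosomal RNA went into strand-specific libraries. STAR 2.7.1a and featureCounts on GRCm38, with Trimmomatic 0.39, FastQC 0.11.8 and DESeq2 1.26.0, are named per the submitters' processing notes. Neither the strand setting of the counting nor its handling of multimapped reads is given there. The authors deposited raw counts as whole numbers for 55421 genes, which were used here, and a second table that divides them by a constant per library, which was not. Symbols, positions and exon lengths came from GENCODE M21 (54673 identifiers matched with their version, 567 without, 181 not).

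Counts were tested with edgeR 4.0.16 in R 4.3.3 (TMM, filterByExpr, robust quasi-likelihood, no covariate, Benjamini-Hochberg over 20388 genes), with standard errors from the F statistic. The test was checked on simulated counts. Alternatives were other scalings, filters, thresholds and tests (DESeq2 1.42.0, limma 3.58.1 voom), a replicate block, Xist as a covariate and leaving out each library. With 1 control left, it is assumed to vary like the Yy1 cKO libraries. No library was a copy of another. Named genes are the 9 members, up to 3 genes of smallest p in each related list (some are not reported here), and the 3 genes of most similar profile for the 3 members of smallest p. The members and lists were chosen with earlier results of these data known. The NALCN list names Nalf1 by its older symbol Fam155a.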

Additional observations from a re-analysis of the deposited data

How the results depend on the processing

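Scn1a, Scn2a, Scn2b, Fgf14, Scn3a and Scn3b kept their direction and their call under all 14 alternatives, with log2 fold changes of 0.68 to 0.81, 0.54 to 0.64, 0.68 to 0.84, 0.34 to 0.48, -1.39 to -1.19 and -2.41 to -2.23. Scn4b was not called under any (0.61 to 1.43, adjusted p 0.14 to 0.74). Fgf12 lost its call under 8 alternatives and Scn8a gained one under 3. The number of members called higher ran from 4 to 6 and that of members called lower was 2 under each. The shares of alpha subunit genes kept their direction under the 6 alternatives tried for them. Leaving out any 1 library could not change it, since the groups of shares did not overlap. With the length of the longest transcript the mean shares differed by 4.27 percentage points for Scn2a, 2.53 for Scn1a, -5.62 for Scn8a and -1.18 for Scn3a. Over all genes, 1432 were higher with scaling by library size alone, which shifted the median log2 fold change by -0.08, and 1095 were higher and 1453 lower at an adjusted p under 0.01. Leaving out 1 library gave 887 to 2990 higher and 1267 to 3127 lower genes. The lowest numbers came without control 1 (920 higher and 1267 lower) and without control 2 (887 and 1300).

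With the replicate block, on libraries numbered 1 and 2, 3512 genes were higher, against 2185 without it, and Scn8a was called (log2 fold change 0.28, adjusted p = 2.0e-07). That fit also leaves out Yy1 cKO 3, without which 2990 genes were higher. The correlation of same-numbered deviations was 0.037 and 0.013, and the labels tie the numbers to no litter or day, so the numbers were not taken as pairs. Depth limits Scn3a most among the 9 genes, with 100 to 301 counts per library.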

Other observations

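The genes around the sodium channel clusters were listed after the values of the channels were seen. Beside the counts below, 10.7% of all genes tested were called higher and 12.6% lower. Within 100 kb of the span from Scn3a to Scn1a on chromosome 2, 7 other genes were tested and 1 rose, Gm13629, annotated as antisense, on the opposite strand, whose start (66440880) lies next to that of Scn1a (66440840), by 0.97 ± 0.22 on the log2 scale (adjusted p = 0.012). Csrnp3 (-0.14, adjusted p = 0.27) and Ttc21b (0.00, adjusted p = 0.995), which lie between Scn2a and Scn1a, did not pass. Around Scn2b and Scn4b on chromosome 9, 5 other genes were tested and 2 rose, Mpzl3 by 1.12 ± 0.14 (adjusted p = 4.0e-04) and Jaml by 0.86 ± 0.27 (adjusted p = 0.044), both genes of immunoglobulin-domain proteins upstream of Scn2b.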
